A study of Mus musculus with 6 samples.

Results

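The visual cycle is the chain of reactions that returns bleached chromophore to photoreceptors. The 10 genes described here are Rpe65, Lrat, Rdh5, Rdh8, Rdh10, Rdh11, Rdh12, Rbp3, Abca4 and Rgr, taken by gene symbol from 24346 rows in all, and each of the 10 had a row in every library. They were named as a set of visual cycle and retinoid enzymes, and 4 of them (Rdh8, Rdh12, Rbp3, Abca4) stand for the photoreceptor side and 4 (Rpe65, Lrat, Rdh5, Rgr) for the pigment epithelium side. Rdh10 and Rdh11 belong to neither side of that contrast. The libraries are bulk RNA from mouse brain of embryonic day 17.5, according to the labels. In 3 libraries the genotype is miR-124a-1/2 DKO, a double knockout of a pair of the genes that make the neuronal microRNA miR-124a. The other 3 are labelled control and carry the genotype miR-124a-1+/-, so the contrast is between loss of both genes and heterozygous loss of one. The labels name no strain, litter, promoter or Cre, and nothing in them says whether the libraries come from separate embryos, so p-values measure only the spread between these libraries, which may be technical.

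In the eye, light turns the 11-cis-retinal bound to an opsin into all-trans-retinal, which leaves the opsin, is moved across the disc membrane by ABCA4 and is reduced to all-trans-retinol by the photoreceptor dehydrogenases RDH8 and RDH12. The retinol crosses the space between photoreceptors and epithelium, where RBP3 (interphotoreceptor retinoid-binding protein) carries retinoids. In the pigment epithelium LRAT joins it to a fatty acid, RPE65 turns the ester into 11-cis-retinol, and RDH5 oxidises that to 11-cis-retinal. RGR is an opsin of pigment epithelium and Müller glia that binds all-trans-retinal. RDH10 and RDH11 are retinol dehydrogenases of several cell types, and RDH10 is the main retinol dehydrogenase of retinoic acid synthesis in embryos.

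The photoreceptor and epithelium genes differ in level by orders of magnitude in these data, so their promoters are shown first. A promoter window (250 bases before to 50 after the start site, RefSeq, GRCm38.p6) was found for 9 of the 10 genes, with 10 windows since Rdh11 had a pair. Each window was searched on both strands for GGATTA (or TAATCC), the core word of sites for the homeodomain factors CRX and OTX2, and for TGCTGA (or TCAGCA), a word within sites of the rod factor NRL. GGATTA stood in the windows of 4 of the 9 genes, and 7.06% of 32851 promoter windows of the same length hold it. These 4 are shown because they include genes from both sides, Rbp3 and Abca4 on the photoreceptor side and Rpe65 and Rgr on the epithelium side, with the matched word in capitals.
Rbp3, chr14:33953753-33954052, plus strand: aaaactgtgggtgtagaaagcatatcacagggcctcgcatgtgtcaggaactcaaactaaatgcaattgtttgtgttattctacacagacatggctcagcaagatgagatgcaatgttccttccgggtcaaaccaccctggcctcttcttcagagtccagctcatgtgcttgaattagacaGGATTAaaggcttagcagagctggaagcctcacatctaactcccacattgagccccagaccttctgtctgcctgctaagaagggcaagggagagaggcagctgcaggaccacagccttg
Abca4, chr3:122044210-122044509, plus strand: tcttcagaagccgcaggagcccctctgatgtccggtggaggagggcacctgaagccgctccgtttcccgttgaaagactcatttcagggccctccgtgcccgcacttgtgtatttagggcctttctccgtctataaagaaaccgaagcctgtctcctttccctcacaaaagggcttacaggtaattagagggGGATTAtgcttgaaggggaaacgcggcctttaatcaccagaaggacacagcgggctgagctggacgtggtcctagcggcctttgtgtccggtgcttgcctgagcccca
Rpe65, chr3:159598931-159599230, plus strand: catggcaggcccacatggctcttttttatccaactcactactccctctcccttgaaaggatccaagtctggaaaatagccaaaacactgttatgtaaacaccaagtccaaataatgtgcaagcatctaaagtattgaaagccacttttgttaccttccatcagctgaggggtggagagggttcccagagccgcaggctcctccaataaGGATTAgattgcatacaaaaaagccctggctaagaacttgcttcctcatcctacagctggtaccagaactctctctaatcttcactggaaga
Rgr, chr14:37048965-37049264, minus strand: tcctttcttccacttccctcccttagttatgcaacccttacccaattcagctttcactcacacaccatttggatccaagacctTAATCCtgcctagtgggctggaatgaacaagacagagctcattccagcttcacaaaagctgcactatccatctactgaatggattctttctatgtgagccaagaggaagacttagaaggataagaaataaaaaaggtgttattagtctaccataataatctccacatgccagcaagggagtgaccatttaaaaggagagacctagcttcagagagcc

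The first base of the word lay at -69 from the start site in Rbp3, at -58 in Abca4 and at -42 in Rpe65. In Rgr it lay at -167, on the other strand. The word thus occurred in 2 genes on each side and did not separate them. TGCTGA stood in the windows of 3 genes, Rdh8, Rdh12 and Rbp3, all on the photoreceptor side, against 19.5% of all windows. Rdh8 and Rdh12 each held 2 matches, and in both genes at least 1 of them lay after the start site. A match is a description of letters and does not show that a factor binds.

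The tissue label was checked against marker genes. The 14 rod markers summed to 20330 to 22032 FPKM (fragments scaled by transcript length in kilobases and by library size) in the libraries labelled DKO and to 21430 to 22987 FPKM in the libraries labelled control. The 12 markers of embryonic forebrain neurons summed to 19.1 to 20.7 FPKM in the libraries labelled DKO and 20.2 to 22.3 FPKM in those labelled control, with Emx1, Emx2 and Dlx5 at 0 in all 6. The 10 markers of dividing progenitors summed to 12.1 to 13.5 FPKM in the libraries labelled DKO and 11.6 to 13.2 FPKM in those labelled control. Defining markers of embryonic forebrain were therefore near 0 and those of rods abundant, in both groups, which goes against the label. The host transcript of miR-124a-1, Mir124a-1hg, measured 510, 464 and 502 FPKM in DKO replicates 1 to 3 and 420.1, 528 and 492 FPKM in control replicates 1 to 3. That of miR-124a-2, listed as 2610100L16Rik, measured 69.9, 98.0 and 97.8 FPKM in DKO replicates 1 to 3, against 80.3, 110.5 and 115 FPKM in control replicates 1 to 3. Both pairs of ranges overlapped and the deleted parts are not given in the labels, so these rows do not check the genotype, and groups are named by their labels throughout. Low values moved in steps of single fragments, which put the libraries at an estimated 6980000 to 8660000 fragments in those labelled DKO and 6720000 to 7290000 in those labelled control. The sums of 3 other marker lists did not overlap between the groups. Those of rods, cones, pigment epithelium, choroid plexus, forebrain neurons and dividing progenitors did overlap. Of all single rows tested between the groups, 13.9% did not overlap. The 12 Müller glia markers summed to 2540 to 2738 FPKM in the libraries labelled DKO and 2329 to 2450 FPKM in those labelled control, but without Dkk3, 1 of the 3 rows past the threshold, the sums were 2124 to 2264 FPKM under the DKO label and 2101 to 2209.7 FPKM under the control label, and overlapped. The 10 bipolar cell markers summed to 998 to 1050.3 FPKM in the libraries labelled DKO and 1110 to 1157 FPKM in those labelled control. The 10 markers of choroid, ciliary body and iris summed to 17.9 to 23.1 FPKM in the libraries labelled DKO and 24.0 to 27.8 FPKM in those labelled control, but without Mfap4 the sums were 16.7 to 22.3 FPKM under the DKO label and 19.6 to 25.3 FPKM under the control label, and overlapped. The bipolar sums did not overlap whichever of the 10 markers was left out. These checks were chosen after the values were seen, and the part of these cells in the members' values was not tested.

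The photoreceptor-side genes were abundant in all 6 libraries. Rbp3, the retinoid carrier of the interphotoreceptor matrix (GRCm38 chromosome 14, 33954003 to 33964216), measured 831, 894 and 883 FPKM in DKO replicates 1 to 3 and 885, 904 and 902 FPKM in control replicates 1 to 3. It ranked 24th of the 24346 rows by mean level. DKO replicate 1 was the lowest library, and the other 5 lay within a narrow band that both groups share.

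Rdh12, a retinal reductase of photoreceptor inner segments (chromosome 12, 79208914 to 79222665), measured 296, 268 and 273 FPKM in DKO replicates 1 to 3 and 289, 298 and 283 FPKM in control replicates 1 to 3. Abca4, the retinoid flippase of outer segment discs (chromosome 3, 122044443 to 122180123), measured 181, 183 and 196 FPKM in DKO replicates 1 to 3 and 171, 194 and 187 FPKM in control replicates 1 to 3. In both genes the groups overlapped, with control replicate 1 the lowest for Abca4. Rdh8, the outer segment retinal reductase (chromosome 9, 20818503 to 20826117), measured 100.5, 129 and 97.6 FPKM in DKO replicates 1 to 3 and 125, 109 and 127 FPKM in control replicates 1 to 3. Its highest library was DKO replicate 2 and its lowest were the others of that label, so that the libraries labelled DKO spanned the whole range.

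The epithelium-side genes were at or below a few FPKM. Rpe65, the isomerohydrolase of the pigment epithelium (chromosome 3, 159599175 to 159625321), measured 0.645, 1.24 and 1.71 FPKM in DKO replicates 1 to 3 and 1.604, 0.772 and 1.59 FPKM in control replicates 1 to 3. An estimated 8.4 to 25.1 fragments per library stood behind these values. DKO replicate 1 and control replicate 2 were low, which is 1 library of each label.

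Lrat, lecithin retinol acyltransferase (chromosome 3, 82892579 to 82903973), measured 0.333, 0.310 and 0.317 FPKM in DKO replicates 1 to 3 and 0.348, 0.147 and 0.227 FPKM in control replicates 1 to 3, from an estimated 5.7 to 14.4 fragments. Rdh5, 11-cis-retinol dehydrogenase (chromosome 10, 128913593 to 128922888), measured 1.88, 2.54 and 2.11 FPKM in DKO replicates 1 to 3 and 2.10, 1.08 and 1.24 FPKM in control replicates 1 to 3, from 9.9 to 27.6 estimated fragments. For both, control replicates 2 and 3 were the 2 lowest libraries, while control replicate 1 was above all libraries labelled DKO for Lrat and among them for Rdh5. Rgr, the retinal G protein-coupled receptor (chromosome 14, 37034909 to 37048964), measured 1.16, 1.22 and 1.25 FPKM in DKO replicates 1 to 3 and 1.38, 0.802 and 0.921 FPKM in control replicates 1 to 3, from 27.5 to 49.9 estimated fragments. Here the control group held both the highest and the lowest libraries.

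Rdh10 and Rdh11 lay between the sides. Rdh10 (chromosome 1, 16105774 to 16133734) measured 33.8, 33.7 and 36.7 FPKM in DKO replicates 1 to 3 and 31.6, 29.8 and 39.8 FPKM in control replicates 1 to 3. Rdh11 (chromosome 12, 79174337 to 79192293) measured 23.5, 18.5 and 22.0 FPKM in DKO replicates 1 to 3 and 19.2, 22.9 and 17.6 FPKM in control replicates 1 to 3. The groups overlapped in either gene, and the controls spanned the DKO values of Rdh10.

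**Figure D1:**
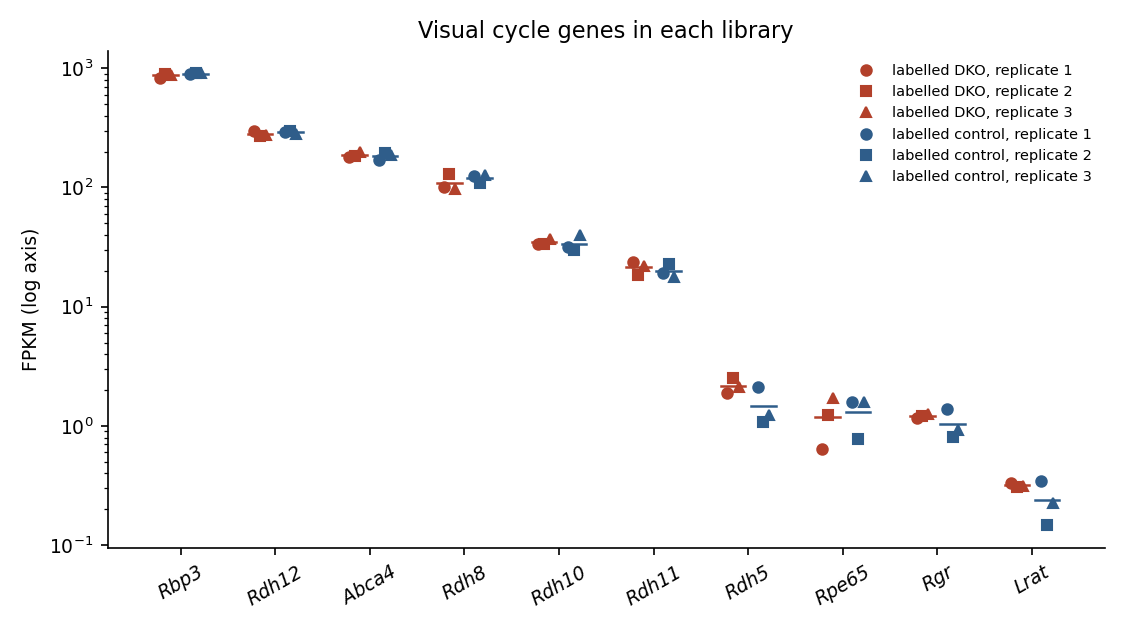
FPKM (log axis) of the 10 visual cycle genes in each library, ordered by mean level, with 1 point per library (symbols mark replicates 1 to 3), a line at each group's mean, and the libraries labelled DKO left of those labelled control. The 4 photoreceptor-side genes lie at 97.6 FPKM or above and the 4 epithelium-side genes at 2.54 FPKM or below, and the groups overlap in each gene.

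By mean FPKM over the 6 libraries the order was Rbp3 (883 ± 27.2), Rdh12 (284 ± 12.1), Abca4 (185 ± 9.33), Rdh8 (115 ± 13.9), Rdh10 (34.2 ± 3.59), Rdh11 (20.6 ± 2.49), Rdh5 (1.83 ± 0.560), Rpe65 (1.26 ± 0.458), Rgr (1.12 ± 0.219) and Lrat (0.280 ± 0.0777; SD, n = 6 throughout). The ranges of neighbours did not overlap from Rbp3 down to Rdh5, and Lrat lay below Rgr in all 6 libraries. The ranges of Rdh5, Rpe65 and Rgr overlapped. Rdh5 was above Rgr in all 6 libraries, whereas Rdh5 was above Rpe65 in 5 of 6 and Rpe65 above Rgr in 4 of 6, so the place of Rpe65 was not settled beyond the spread. The step between Rdh11 and Rdh5, 11.3 times, was the widest in the order.

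Between the sides there was no overlap. The lowest photoreceptor-side value of any library (Rdh8, 97.6 FPKM) was 38.5 times the highest epithelium-side value (Rdh5, 2.54 FPKM). Summed over their 4 genes, the photoreceptor side measured 1408, 1474 and 1449 FPKM in DKO replicates 1 to 3 and 1471, 1505 and 1498 FPKM in control replicates 1 to 3. The epithelium side summed to 4.02, 5.31 and 5.39 FPKM in DKO replicates 1 to 3 and 5.44, 2.80 and 3.97 FPKM in control replicates 1 to 3. The photoreceptor sum thus varied by 1.07 times between the highest and lowest library and the epithelium sum by 1.94 times. The ratio of the sums was 350.0, 278 and 269 in DKO replicates 1 to 3, against 270.4, 537 and 377 in control replicates 1 to 3, and the groups overlapped. On the log2(FPKM + 1) scale the mean photoreceptor-side level exceeded the mean epithelium-side level by 6.97 ± 0.10 in the libraries labelled DKO and by 7.16 ± 0.23 in those labelled control (SD, n = 3 each). The difference, -0.19, is given without a test, since the genes were chosen with earlier results known. Without control replicate 2 it was -0.079. In bulk RNA, fewer cells of a type and less RNA per cell cannot be told apart.

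**Figure D2:**
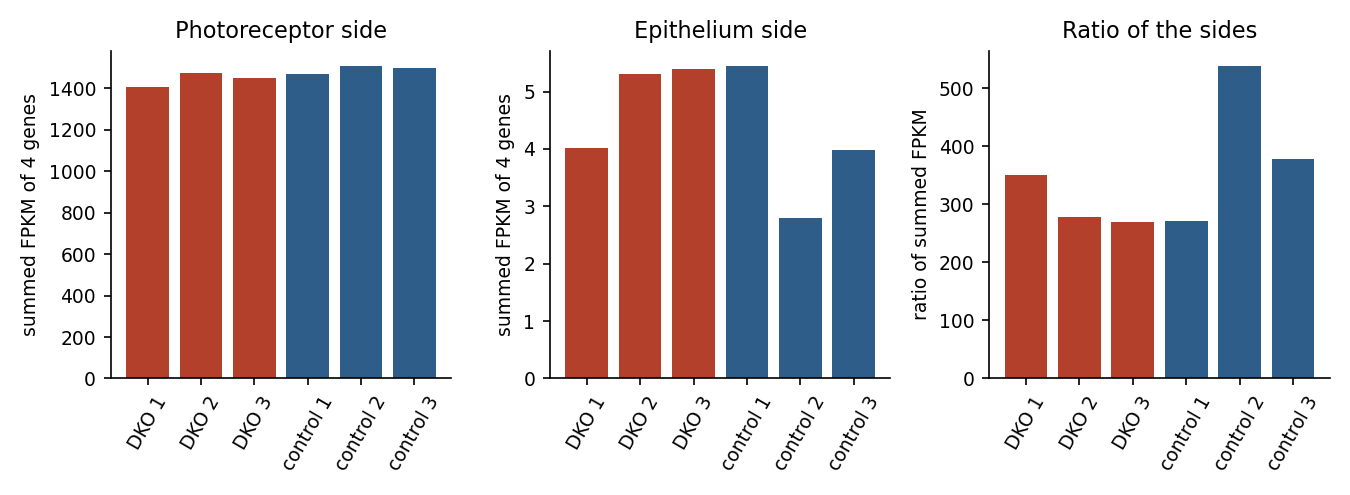
Summed FPKM of the photoreceptor-side genes (left), of the epithelium-side genes (middle) and their ratio (right), with 1 bar per library and the libraries labelled DKO in red, left of those labelled control in blue. The photoreceptor sum stays between 1408 and 1505 FPKM, while the epithelium sum runs from 2.80 to 5.44 FPKM and is lowest in control replicate 2.

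Markers of the pigment epithelium outside the visual cycle were also low. Of 18 such markers, 11 averaged under 1 FPKM, and the median marker lay between 0.468 and 0.758 FPKM in the 6 libraries. Tyr, the tyrosinase of melanin synthesis, measured 0.297, 0.446 and 0.301 FPKM in DKO replicates 1 to 3 and 0.267, 0.569 and 0.167 FPKM in control replicates 1 to 3. Mlana was at 0 in 5 of 6 libraries. The sum of the list was 118 to 123 FPKM in the libraries labelled DKO and 116 to 126 FPKM in those labelled control, but Krt18 and Trpm3, at 45.1 to 52.2 and 46.9 to 51.2 FPKM over all libraries, made up most of it. This sum was not lowest in control replicate 2 (123 FPKM), where Lrat, Rdh5 and Rgr were lowest. Of the 18 markers, 2 (Slc16a8 and Oca2) had their lowest value in that library and 2 (Tyr and Gpr143) their highest. The part of any epithelial tissue in the low values of that library was not tested.

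The spread was set beside counting error. From the estimated fragments, counting alone would give a coefficient of variation (CV, SD over mean) of 25.9% for Rpe65, 31.5% for Lrat, 25.6% for Rdh5 and 16.3% for Rgr. The observed CVs over the 6 libraries were 36.3%, 27.7%, 30.7% and 19.5% in the same order. Lrat lay below its counting value and the other 3 above theirs, by smaller factors than any photoreceptor-side gene. The counting values are estimates from the longest coding transcript, and a CV over 6 libraries is imprecise. Which of these 4 genes varied beyond counting error was thus not settled. For Rdh8 counting would give 2.9% and the observed CV was 12.2%, the highest of the photoreceptor side. Rbp3 had 3.1% observed against 0.5% from counting, Rdh12 4.2% against 1.7% and Abca4 5.0% against 1.0%. Rdh10 and Rdh11 had observed CVs of 10.5% and 12.1%, against 3.3% and 4.5% from counting. Tested rows of at least 100 FPKM had a median CV of 4.84%, so Rdh8 varied more than a usual row of its level, while Rbp3 and Rdh12 varied less. Tested rows with means under 2 FPKM had a median CV of 21.4%.

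**Figure D3:**
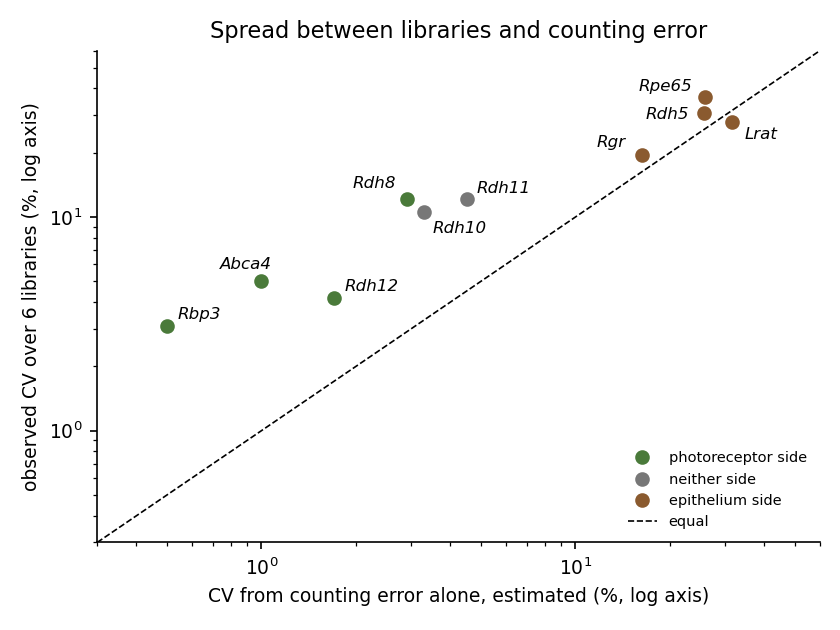
Observed coefficient of variation over the 6 libraries against that from counting error alone, both in percent on log axes, with 1 point per gene coloured by side and a dashed line where both are equal. Rpe65, Rdh5, Rgr and Lrat lie near the line, and the 4 photoreceptor-side genes, Rdh10 and Rdh11 lie above it.

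None of the visual cycle genes passed the test between the groups. Of the 10 genes, 9 had a mean of at least 1 FPKM and entered the limma fit on log2(FPKM + 1), and Lrat did not. Of the 13215 rows tested, 0.0227% (3 rows, none of them a member) passed at a Benjamini-Hochberg adjusted p under 0.05. At an unadjusted limma p under 0.05 there were 0 of the 9, against 7.88% of all tested rows. The groups overlapped in each of the 9 genes, whereas they did not overlap in 13.9% of all tested rows. The median log2 fold change of the 9 was 0.02, with 5 above 0 and 4 below, against -0.0016 over all tested rows.

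On the photoreceptor side, Rdh8 had the largest difference, a log2 fold change of -0.15 with a 95% confidence interval of -0.40 to 0.10 (limma, Benjamini-Hochberg adjusted p = 0.775). Its means were 109 ± 17.1 FPKM in the libraries labelled DKO and 120.4 ± 9.65 FPKM in the libraries labelled control (SD, n = 3 each). The value for Rdh8 was -0.28 without DKO replicate 2 and -0.080 without DKO replicate 3. Rdh12 had -0.06 (interval -0.17 to 0.06), Rbp3 -0.05 (-0.16 to 0.07) and Abca4 0.02 (-0.11 to 0.16). These 3 intervals lay within 0.2 of 0 on the log2 scale. They measure only the spread between these libraries, which may be technical, so they set no bound on an effect of genotype.

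On the epithelium side the intervals were wider. Rdh5 had the smallest p of the members, with 2.18 ± 0.332 FPKM in the libraries labelled DKO and 1.47 ± 0.551 FPKM in the libraries labelled control (SD, n = 3 each). On the log2(FPKM + 1) scale it differed by 0.38, with an interval of -0.02 to 0.78 and a Benjamini-Hochberg adjusted p of 0.656 in limma. The groups overlapped, since control replicate 1 (2.10 FPKM) lay above DKO replicate 1 (1.88 FPKM). Rgr had 0.13 (interval -0.20 to 0.46) and Rpe65 -0.09 (-0.61 to 0.44), and the sign of Rpe65 turned when single libraries were left out. Lrat, under the filter, averaged 0.320 ± 0.0116 FPKM in the libraries labelled DKO and 0.241 ± 0.101 FPKM in those labelled control (SD, n = 3 each), with a log2 difference of 0.09 and no test. Rdh10 and Rdh11 had 0.05 (interval -0.18 to 0.29) and 0.10 (-0.17 to 0.36). A fold change on this scale understates that of a gene near 1 FPKM.

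**Figure D4:**
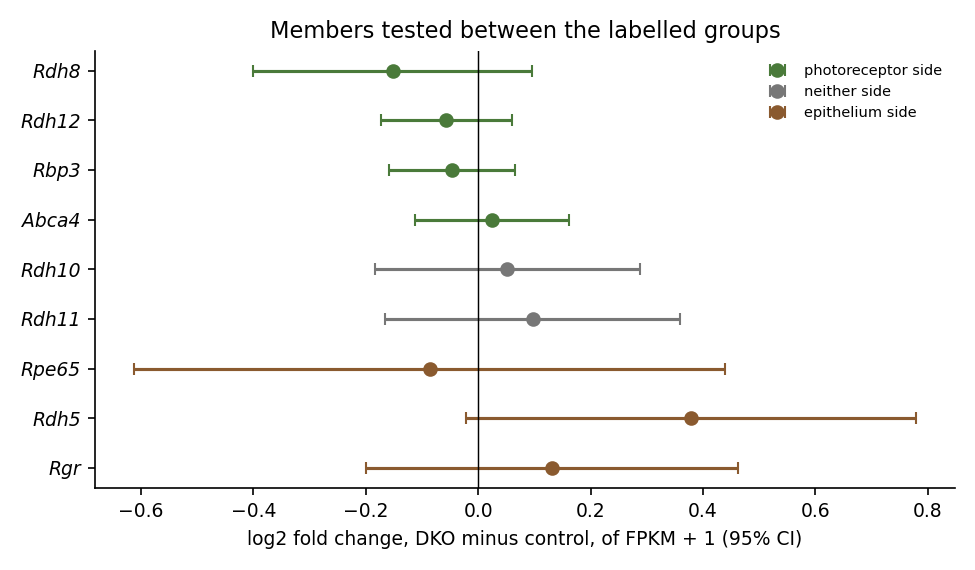
Log2 fold change of FPKM + 1, libraries labelled DKO minus libraries labelled control, for the 9 tested genes, with 95% confidence intervals from limma and colours by side. Each interval spans 0, those of Rbp3, Rdh12 and Abca4 are the narrowest and those of Rpe65 and Rdh5 the widest.

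Some rows share sequence or position with another gene. Rdh11 and Rdh12 are neighbours on chromosome 12, 16.62 kb apart, but their longest coding transcripts share no stretch over 14 bases. Over the 10 pairs of the 5 dehydrogenase members the longest shared stretch was 10 to 14 bases. Rdh5 overlaps Bloc1s1, a lysosome-related organelle subunit on the same strand, which measured 70.1 to 86.6 FPKM in the libraries labelled DKO and 73.3 to 85.4 FPKM in those labelled control. The sources used here do not say how fragments in the overlap were assigned, so the level of Rdh5 is uncertain beside a neighbour of that abundance. Lrat lies within the antisense gene Rbm46os, listed at 0 in all 6 libraries, and Abca4 overlaps 2 pseudogenes on the opposite strand that have no row.

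No retinoid gene beyond the members passed the test either. Of 64 genes in 5 related lists, 61 had a row, 37 were tested, and 0 passed in either direction (limma, Benjamini-Hochberg adjusted p 0.412 to 0.996). Of all tested rows 0.0227% passed, so 0 of 37 is near that share and is no result about retinoid genes. The same holds for the counts by list below. At an unadjusted limma p under 0.05 there was 1 of the 37, against 7.88% of all tested rows. The groups did not overlap in 2 of the 37, against 13.9% of all tested rows. The median log2 fold change of the 37 was 0.0069, with 21 above 0 and 16 below. In the list of binding and uptake proteins (8 tested, 0 passed) Rlbp1, which carries 11-cis-retinoids in Müller glia and pigment epithelium, measured 189.8, 196 and 213 FPKM in DKO replicates 1 to 3 and 198, 195 and 194 FPKM in control replicates 1 to 3. It differed by 0.03 (SE 0.05) on the log2(FPKM + 1) scale, and it lay at the level of Abca4 in libraries where Rpe65 was near 1 FPKM. Stra6, the retinol uptake receptor of pigment epithelium, measured 1.595 to 2.62 FPKM in the libraries labelled DKO and 1.72 to 2.26 FPKM in those labelled control. Fabp5, a fatty acid-binding protein that also binds retinoic acid, had a log2 fold change of -0.13 (SE 0.09).

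Ttr, the plasma carrier of the retinol-binding protein, measured 6.26, 9.07 and 6.81 FPKM in DKO replicates 1 to 3 and 8.74, 2.996 and 4.88 FPKM in control replicates 1 to 3. As with Rdh5, its lowest libraries were control replicates 2 and 3. The fitted log2 difference of 0.44 (SE 0.29) had an adjusted p of 0.768 (limma, Benjamini-Hochberg). Ttr is made by pigment epithelium and, in brain, by choroid plexus, and the 8 choroid plexus markers summed to 189 to 219 FPKM in the libraries labelled DKO and 209 to 229 FPKM in those labelled control, so the groups overlapped. Over all libraries Otx2, a factor that photoreceptors also use, measured 109 to 144 FPKM, Kcne2 36.4 to 47.6 FPKM, Aqp1 20.5 to 29.9 FPKM, Slc4a5 10.4 to 12.98 FPKM and Folr1 2.82 to 5.52 FPKM, while Kl, Clic6 and Prlr stayed under 1 FPKM. The part of choroid plexus in the level of Ttr was not tested.

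Among other dehydrogenases (8 of 19 tested, 0 passed) the most abundant tested gene was Dhrs3, a retinal reductase, at 51.2 ± 6.77 FPKM in the libraries labelled DKO and 47.5 ± 5.63 FPKM in those labelled control (SD, n = 3 each), and differed by 0.10 (SE 0.11) on the log2 scale. Dhrs7 had -0.06 and Rdh14 -0.09. Rdh7, Sdr16c5 and Adh4, named after their values were seen, were listed at 0 in all 6 libraries. In the list of ester and isomerase genes (9 of 16 tested, 0 passed) Lpl, lipoprotein lipase, had the smallest p of all related genes. It measured 15.2, 14.5 and 13.8 FPKM in DKO replicates 1 to 3 and 12.2, 12.0 and 12.2 FPKM in control replicates 1 to 3, and the groups did not overlap. The fitted log2 difference of 0.24 (SE 0.06) missed the threshold, with an adjusted p of 0.412 (limma, Benjamini-Hochberg). Dgat1, an acyltransferase that can esterify retinol, had -0.13, and the lipoprotein receptor Scarb1 and the fatty acid transporter Slc27a1 had -0.09 and -0.08. Rrh, the peropsin of pigment epithelium, was named after its values were seen: it measured 12.5, 15.2 and 17.2 FPKM in DKO replicates 1 to 3 and 13.3, 14.1 and 12.6 FPKM in control replicates 1 to 3, above the 4 epithelium-side members in every library.

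Genes of retinoic acid were measured at modest levels. Of 7 genes for its synthesis and breakdown 3 were tested and 0 passed. Aldh1a1, a retinal dehydrogenase that makes retinoic acid, measured 25.7 ± 2.66 FPKM in the libraries labelled DKO and 26.2 ± 1.89 FPKM in those labelled control (SD, n = 3 each), while Aldh1a2, named after its values were seen, stayed at or under 0.170 FPKM. Cyp26a1, which breaks retinoic acid down, differed by -0.29 (SE 0.21) and Cyp1b1 by -0.16 (SE 0.10) on the log2 scale. All 9 receptors and cofactors were tested, 0 passed, and the 9 fold changes were above 0 with a median of 0.03. Over all tested rows, 6537 fold changes were above 0 and 6678 below. Rarb, a retinoic acid receptor, had 0.17 with SE 0.11 and an adjusted p of 0.756 (limma, Benjamini-Hochberg). Its groups did not overlap. It measured 2.98, 2.410 and 2.92 FPKM in DKO replicates 1 to 3 and 2.25, 2.35 and 2.406 FPKM in control replicates 1 to 3. The corepressor Ncor1 had 0.07 and the coactivator Ncoa1 0.0036.

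**Figure D5:**
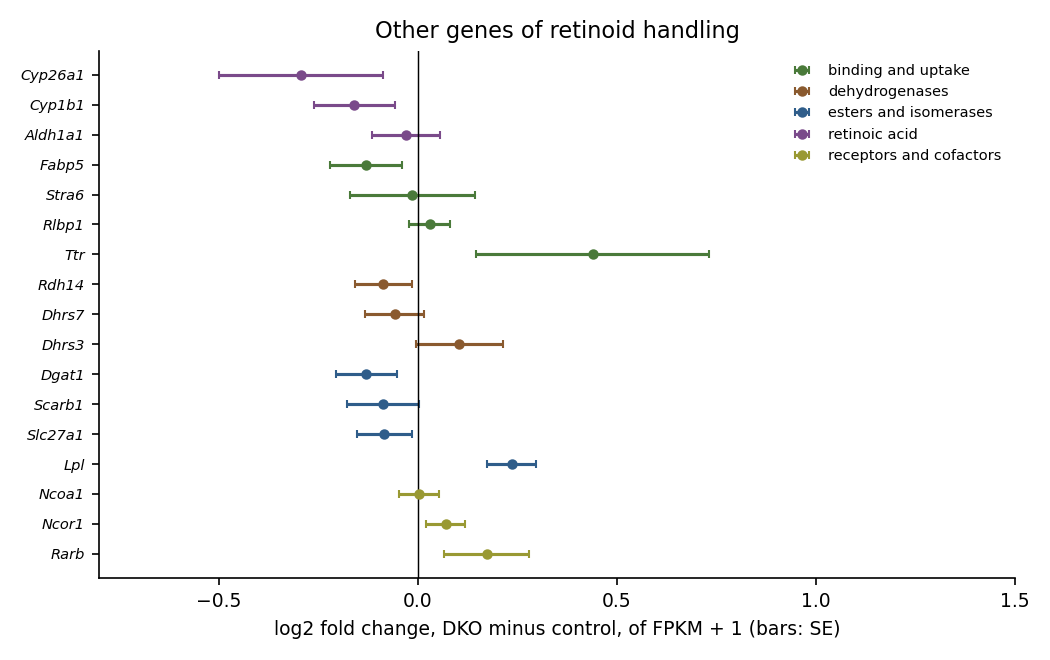
Log2 fold change of FPKM + 1, libraries labelled DKO minus libraries labelled control, for the named genes of the 5 related lists, with bars of 1 SE and colours by list. Ttr (0.44) and Cyp26a1 (-0.29) have the largest values and wide errors, and Lpl (0.24) has a narrow one, while 0 of the genes passed the threshold.

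The rows whose profile over the 6 libraries was most like each side were found by the root mean square difference between centred log2 values. For the photoreceptor side, among 13157 candidate rows, they were Trak2 (difference 0.012), a trafficking adaptor for mitochondria, Gnb1 (0.012), the transducin beta subunit of rods, and Gpalpp1 (0.014). Gnb1 measured 1278, 1369 and 1313 FPKM in DKO replicates 1 to 3 and 1338, 1360 and 1384 FPKM in control replicates 1 to 3. It was low in the same 2 libraries labelled DKO as the summed photoreceptor side, which follows from how it was chosen. For the epithelium side, among 8443 candidates, they were Arrdc1 (0.043), Adam8 (0.045), a metalloprotease, and Tmem51 (0.055). The members behind that profile had an estimated 5.7 to 49.9 fragments per library, and the part of counting error in these likenesses was not tested. Arrdc1, an arrestin-domain protein, measured 4.76, 5.76 and 6.20 FPKM in DKO replicates 1 to 3 and 5.96, 4.43 and 4.93 FPKM in control replicates 1 to 3. None of these 3 is in the list of epithelium markers. A likeness over 6 libraries is a description only.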

How the data were processed

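Per the labels' protocols, TRIzol served for RNA extraction and the library kit was TruSeq stranded mRNA. Per the submitters' processing notes, TopHat2 2.1.1, Bowtie2, Cuffdiff 2.2.1 and mouse build mm10 were used. Of annotation, options and scaling nothing is given in the sources used here. Values deposited by the authors are 1 FPKM per gene symbol and library, per the file headers, which write CKO in place of DKO.

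Rows averaging 1 FPKM or more over the 6 libraries were tested on log2(FPKM + 1) with limma 3.58.1 (R 4.3.3; lmFit, eBayes with a trend), DKO minus control, with Benjamini-Hochberg adjustment over 13215 rows. The fit was tested on simulated data with 200 changed genes. Positions and transcripts are from GENCODE M21 (GRCm38, the assembly of mm10) and promoters from RefSeq. Python 3.11.15, pandas 2.3.3 and NumPy 2.4.6 were used.

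For genes with 1 annotated transcript of at least 2000 bases and values under 0.3 FPKM, FPKM times length peaked at a unit taken as 1 fragment, and 80.7% to 85.1% of the values of up to 4 such units lay within 0.15 of a whole number. Depths and fragment numbers follow from this unit and each gene's longest coding transcript. They are estimates, and ignore effective length.

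Members and lists were chosen with earlier results of these data known. Besides the members, the text names, of each related list, genes past the threshold or else the 2 of smallest p, the 2 of highest mean, Rlbp1, Ttr and Stra6, and the 3 rows of nearest profile to each side, among rows with at least 0.5 times its SD. Rrh, Rdh7, Sdr16c5, Adh4, Aldh1a2 and single markers were named after their values were seen. Alternatives were pseudocounts of 0.1 and 0.5, quantile normalization, scaling by median of ratios, no filter, a filter at 5 FPKM, eBayes without a trend, a block for replicate number, and leaving out each library.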

Additional observations from a re-analysis of the deposited data

How the results depend on the processing

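Of the visual cycle genes, 0 passed under each of the 14 alternatives (lowest limma adjusted p 0.524, Benjamini-Hochberg, for Rdh5). Over all tested rows only 1 to 4 passed under any alternative, so a count of 0 among so few genes says little about them. The count of all rows past the threshold, 3, became 1 with eBayes without a trend, and 1 to 4 when single libraries were left out (the 1 was without control replicate 2). Dkk3 passed under every alternative, but the rows beside it changed. In the main fit they were Cyfip2 and Usp47, and without DKO replicate 1 they were Mir3473g, Mir6992 and Pcsk1n. What caused these shifts was not tested. With replicate number as a block the count was 2 and no member passed. The labels do not say what a number shares. The deviations from group means correlated at 0.072, 0.0063 and 0.10 for equal numbers and at -0.12 to 0.036 for unequal ones. The highest values belonged to equal numbers, but DKO replicate 2 was closest to control replicate 1 (0.036). These values do not settle whether equal numbers belong together, so the numbers were not taken as pairs. Of 124 member values, 118 kept their direction and side of the threshold and 6 changed sign (the cause was not tested): Abca4 without DKO replicate 3 (-0.011) and without control replicate 1 (-0.028), Rpe65 without DKO replicate 1 (0.11), control replicate 1 (0.0080) and control replicate 3 (0.0039), and Rdh10 without control replicate 2 (-0.030). Without single libraries Abca4 ranged up to 0.065, Rpe65 down to -0.27 and Rdh10 up to 0.17. Other members kept their sign but moved by over 1.5 times: over all alternatives Rdh8 lay between -0.28 and -0.080, Rdh12 between -0.10 and -0.025, Rbp3 between -0.093 and -0.014, Rgr between 0.048 and 0.25, Rdh11 between 0.017 and 0.20, and Rdh5 between 0.26 and 0.58 (the highest with a pseudocount of 0.1). The difference between the sides, -0.19, was -0.31 with a pseudocount of 0.1 and lay between -0.31 and -0.079 without single libraries. Rpe65, Rdh5 and Rgr have no value under the filter at 5 FPKM, and Lrat was tested only with no filter. At an estimated 5.7 to 49.9 fragments per library, depth limits the epithelium-side genes.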
